A study of Mus musculus with 18 samples.

Results

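The genes described here form the chain by which cells read interferons and related cytokines: the interferon receptors, the Janus kinases (JAKs), the STAT and interferon regulatory factor (IRF) transcription factors, and the SOCS and PIAS inhibitors. They were taken by symbol from the gene table of the study and 33 of its 23337 genes are described: 4 receptor subunits, 4 kinases, 6 STATs, 7 IRFs, 7 SOCS genes with Cish, and 4 PIAS genes. RNA-seq was done on exorbital lacrimal glands (LGs) of male NOR/LtJ mice, a strain in which leukocytes infiltrate the LG and which models Sjögren's disease, and of male BALB/cJ mice as healthy controls. Both strains were sampled at 3, 8 and 16 weeks of age, with 3 libraries in each of the 6 groups and no treatment or engineered allele in any of them. By the methods of the study, a library of 3 weeks came from 1 mouse and a library of 8 or 16 weeks from a pool of 2 to 3 mice, so age and pooling changed together. NOR and BALB/c are different inbred strains, so strain and disease cannot be told apart in a comparison between them. The sample titles of the diseased strain read NOD whereas its genotype label reads NOR/LtJ, and the libraries were treated as NOR.

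When an interferon or a cytokine of this class binds its receptor, the JAKs held on the receptor's inner tails phosphorylate STAT proteins, which pair, enter the nucleus and switch on target genes. Type I interferons bind IFNAR1 with IFNAR2 and act mainly through a complex that holds STAT2 and IRF9, which binds a DNA motif called the interferon-stimulated response element, whereas interferon gamma binds IFNGR1 with IFNGR2 and acts mainly through STAT pairs that bind the gamma-activated sequence. Several members, such as IRF1, IRF7 and SOCS1, are themselves induced by the pathway, and SOCS proteins feed back on the receptors and JAKs.

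The libraries held between 6378613 and 20493076 counts (median 15202570). Levels are given as CPM, the counts in each 1000000 counts of a library after scaling, and 3 counts, taken as the floor, amounted to 0.118 to 0.527 CPM. Replicates of a group differed by more than sampling noise in every pair, so none was counted as a duplicate. The 7 defining genes of exocrine gland epithelium were present in every group, and their summed level was lower in NOR than in BALB/c LGs at each age without overlap. It was 1779 to 1869 against 2008 to 2082 CPM at 3 weeks, 1528 to 1601 against 1989 to 2147 CPM at 8 weeks and 1056 to 1562 against 1769 to 1933 CPM at 16 weeks. Bhlha15 made the largest part of this sum, with means of 753 against 1346 CPM at 8 weeks and 677 against 1159 CPM at 16 weeks. The lower sum does not describe the 7 genes as a set, whose median log2 fold changes were 0.02, 0.19 and −0.004 at 3, 8 and 16 weeks. Of the 7, 1 was called higher in NOR LGs at 3 weeks, and none was called between the strains at 8 or 16 weeks. In 5 libraries, 2 of them of NOR at 3 weeks, transcripts of the neighbouring parotid gland exceeded 5000 CPM (6287 to 55622, against at most 4057 in the others). Leukocyte markers differed widely between the groups. The summed level of 7 T cell markers was 11.5 to 29.8 CPM in NOR LGs at 8 weeks and 60.2 to 147.0 CPM at 16 weeks, against 0.699 to 1.10 and 1.14 to 2.16 CPM in BALB/c LGs of the same ages. That of 5 B cell markers was 7.25 to 23.9 and 136.1 to 449.3 CPM in NOR LGs, against 0.236 to 0.395 and 0.609 to 5.47 CPM. All 7 T cell and all 5 B cell genes were upregulated in NOR LGs at both ages. Only their levels in NOR LGs of these ages took them past the low-count filter described below, so they had to differ once they were tested. The T cell genes Cd3d and Cd3e had means of 0 CPM in BALB/c LGs at 3 weeks. In bulk tissue, fewer cells of a type and less RNA per cell cannot be told apart, and the part that leukocyte number played in the results below was not tested.

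The strains did not differ past the thresholds for any member at 3 weeks, and the members that passed them at 8 and 16 weeks were all higher in NOR LGs, among them Stat4, Irf5, Irf7 and Jak3 at both ages. Genes were tested with the quasi-likelihood F-test of edgeR, with p-values adjusted by Benjamini-Hochberg over the 13376 genes that passed a filter on low counts, and all 33 members passed it. Differential expression was called where the adjusted p did not exceed 0.05 and the log2 fold change was 1 or more in either direction. At 3 weeks, 0 of the 33 members were called, where 5.26% of all genes were, and 8 members had an unadjusted p under 0.05. DESeq2 also called 0. At 8 weeks, 8 members were called higher in NOR LGs, where 8.93% of all genes were called higher and 11.6% in either direction. At 16 weeks, 13 were called higher, where 14.1% of all genes were called higher and 19.4% in either direction. The median log2 fold change of the 33 members, NOR over BALB/c, was −0.04 at 3 weeks, 0.42 at 8 weeks and 0.70 at 16 weeks, against 0.01, 0.02 and −0.01 for all genes. By the adjusted p alone, without the fold cutoff, 6 members differed at 3 weeks (15% of all genes), 19 at 8 weeks (27.8%) and 25 at 16 weeks (50.9%). Socs1 passed the filter on low counts only through its level in NOR LGs of 16 weeks, and Stat4 only through NOR LGs of 8 and 16 weeks. These 2 members therefore had to differ between the strains at the respective ages once they were tested. Without NOR replicate 1 the count at 8 weeks was 5. Without the 5 libraries rich in parotid transcripts the counts were 0, 8 (with Irf1 and without Socs2) and 14 (with Socs3 as well).

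The libraries themselves showed the same separation. The 3 NOR values lay above the 3 BALB/c values for 4 members at 3 weeks, where 15.8% of all genes did so, for 18 members at 8 weeks (25% of all genes) and for 20 at 16 weeks (28.2%). They lay below for 6, 6 and 5 members, where 15.5%, 20% and 29% of all genes did so. Summed over the 33 members, expression was 514 to 541 CPM in NOR and 554 to 564 CPM in BALB/c LGs at 3 weeks, with NOR lower. The sum was 664 to 764 against 599 to 624 CPM at 8 weeks and 785 to 1037 against 640.1 to 676 CPM at 16 weeks, with NOR higher and no overlap. Among the NOR libraries of 16 weeks, replicate 2 was the highest and replicate 1 the lowest for all 13 members called, and the same libraries were highest and lowest in the summed T cell, B cell, macrophage, dendritic cell and NK cell markers. At 8 weeks, NOR replicate 1 was highest for 7 of the 8 members called and for each of these marker sums. The sum of 5 plasma cell markers had another order. It was 554.5, 630.7 and 660.0 CPM in NOR replicates 1, 2 and 3 at 16 weeks, with replicate 3 the highest. At 8 weeks it was 452.3, 468.6 and 477.4 CPM, with replicate 1 the lowest.

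The promoters of some members hold the DNA letters that the pathway's own factors read. RefSeq promoter windows of 300 bases, from 250 before to 50 after an annotated start, were found for 27 of the 33 members (build GRCm38.p6, the mm10 assembly of the files), and those of Pias2, Pias4, Socs2, Socs5, Socs6 and Socs7 were not. The core of the interferon-stimulated response element was searched on both strands as GAAA, any 2 bases and GAAA, and the core of the gamma-activated sequence as TTC, any 3 bases and GAA, which reads the same on both strands. The first occurred in the windows of 4 members, Irf2, Socs1, Stat2 and Stat4, and in those of 3.99% of all 27025 genes with a window. The second occurred in 7, Cish, Ifnar1, Ifnar2, Irf1, Irf2, Irf8 and Socs3, and in those of 9.55% of all genes. The stretches below are shown because their genes were called in a strain or age comparison; they are written 5′ to 3′ on the gene's own strand, with the matched letters in capitals.
Irf1, chr11:53769899-53769957, plus strand: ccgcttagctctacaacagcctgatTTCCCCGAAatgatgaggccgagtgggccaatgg
Irf2, chr8:46739496-46739554, plus strand: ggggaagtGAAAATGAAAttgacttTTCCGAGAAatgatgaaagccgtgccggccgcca
Irf8, chr8:120736162-120736220, plus strand: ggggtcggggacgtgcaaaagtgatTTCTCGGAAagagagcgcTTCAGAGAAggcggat
Socs1, chr16:10785579-10785638, minus strand: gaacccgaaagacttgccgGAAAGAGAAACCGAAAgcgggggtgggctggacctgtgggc
Socs3, chr11:117969487-117969545, minus strand: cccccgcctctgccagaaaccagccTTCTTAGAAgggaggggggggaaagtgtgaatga
Stat2, chr10:128270251-128270310, plus strand: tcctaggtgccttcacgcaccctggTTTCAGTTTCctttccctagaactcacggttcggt
Stat4, chr1:52008118-52008177, plus strand: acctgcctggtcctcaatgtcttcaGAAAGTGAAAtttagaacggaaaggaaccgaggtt
Ifnar2, chr16:91372544-91372602, plus strand: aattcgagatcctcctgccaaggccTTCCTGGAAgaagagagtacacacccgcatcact
The Irf2 stretch holds both motifs, the Irf8 stretch 2 gamma-activated cores, and the Socs1 stretch 2 response element cores that overlap each other. In Stat2 the response element core lies on the opposite strand, so its reverse complement is printed. A match is a description of the letters and does not show that a factor binds there.

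All 4 receptor subunits were more abundant in NOR LGs at 8 and 16 weeks, and 3 of them reached the fold cutoff at 16 weeks. Ifngr1 encodes the chain that binds interferon gamma. It stood at 28.3, 42.3 and 33.7 CPM in the NOR libraries of 16 weeks and at 15, 13.4 and 17.6 CPM in the BALB/c libraries. All NOR values were above all BALB/c values, with a log2 fold change of 1.18 ± 0.13 (SE, n = 3 libraries per group; adjusted p = 7.41e-07). At 8 weeks, the values were 23.1, 20.3 and 19.1 against 12.6, 12.7 and 15.8 CPM, again apart, at a log2 fold change of 0.60 ± 0.14 (adjusted p = 0.00275) that was under the fold cutoff. Ifngr2, the second chain of that receptor, was at 13.6, 21.8 and 18.6 against 7.60, 7.46 and 9.56 CPM at 16 weeks. The groups did not overlap and the log2 fold change was 1.13 ± 0.20 (adjusted p = 0.000106), which was 0.98 without NOR replicate 2.

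For the type I interferon receptor, Ifnar2, its high-affinity chain, was at 13.5, 21.4 and 18.9 CPM in NOR and at 6.22, 6.70 and 6.10 CPM in BALB/c LGs at 16 weeks. The NOR values were all higher, at a log2 fold change of 1.51 ± 0.20 (adjusted p = 4.81e-06). Ifnar2 was higher in NOR LGs at each age: 10.1, 15 and 15.6 against 5.96, 10.6 and 8.73 CPM at 3 weeks, where the lowest NOR library lay within the BALB/c range (log2 fold change 0.67 ± 0.21, adjusted p = 0.0345), and 12.8, 10.8 and 9.87 against 7.0, 6.29 and 5.64 CPM at 8 weeks, with no overlap (0.83 ± 0.21, adjusted p = 0.00503). It was 1 of 3 members with an adjusted p of at most 0.05 at all 3 ages in the same direction, with Socs2 and Irf3, where 6.93% of all genes were. Ifnar1, the other chain, stood at 0.84 ± 0.12 on the log2 scale at 16 weeks (adjusted p = 1.21e-05), under the fold cutoff, with 23.9 to 34.5 CPM in NOR and 15.7 to 17.4 CPM in BALB/c LGs. Ifnar2, Ifnar1 and Ifngr2 lie in that order within chromosome 16 from 91372783 to 91564007, whereas Ifngr1 lies on chromosome 10 from 19591958 to 19610225.

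Of the kinases, Jak3 and Jak2 were upregulated in NOR LGs and Jak1 and Tyk2 were not. Jak3 serves the receptors that contain the common gamma chain, such as those of interleukins 2, 7 and 21, and is expressed mainly in leukocytes. Its level at 16 weeks was 7.80, 19.6 and 15 CPM in NOR and 1.33, 1.22 and 3.27 CPM in BALB/c LGs. The lowest NOR library was above the highest BALB/c library, and the log2 fold change was 2.83 ± 0.36 (adjusted p = 2.74e-06; 3.50 without BALB/c replicate 3). At 8 weeks the levels were 4.05, 2.54 and 2.76 against 1.02, 1.19 and 0.677 CPM, also apart, at a log2 fold change of 1.71 ± 0.44 (adjusted p = 0.00641). At 3 weeks they overlapped at 0.857 to 1.90 against 0.949 to 1.75 CPM. The Jak3 exons share 406 bases with Insl3 (chromosome 8, 71676383 to 71690577 for Jak3), and reads in a stretch shared by several genes were not counted.

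Jak2, which phosphorylates STATs at the interferon gamma receptor and at the receptors of interleukin 12 and of several hormones, was at 19.8, 31.2 and 24.1 CPM in NOR and at 11.2, 12.2 and 13.3 CPM in BALB/c LGs at 16 weeks. The groups were apart, at a log2 fold change of 1.05 ± 0.15 (adjusted p = 1.47e-05), just past the fold cutoff. Without NOR replicate 2 it was 0.87 and without BALB/c replicate 1 it was 0.98, so Jak2 was then no longer called. Jak1, the kinase shared by both interferon receptors, was the most abundant kinase per length, at 127, 144 and 131 CPM in NOR and at 121, 128 and 119 CPM in BALB/c LGs at 16 weeks. These ranges overlapped, and the log2 fold change was 0.12 (95% confidence interval −0.04 to 0.29). Tyk2, the second kinase of the type I receptor, was lower in NOR than in BALB/c LGs at 3 weeks (−0.31 ± 0.09, adjusted p = 0.0324) but higher at 16 weeks (0.33 ± 0.09, adjusted p = 0.00411), both under the fold cutoff. Its strain difference moved by 0.63 ± 0.13 on the log2 scale from 3 to 16 weeks (adjusted p = 0.0019 for that interaction).

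Of the 6 STATs described, Stat4 was upregulated in NOR LGs at both 8 and 16 weeks and Stat2 at 8 weeks. Stat4 passed the filter on low counts only through the NOR LGs of these ages. It had to differ at these ages once it was tested, so its p-values between the strains are no separate evidence. Stat4 carries the interleukin 12 signal in T cells and NK cells. The gene (chromosome 1, 52008244 to 52107184) was near the floor outside the inflamed glands. The 3 NOR libraries of 3 weeks held 2 counts in all and the BALB/c libraries 6, so no fold change is drawn there. At 8 weeks it was at 2.87, 1.49 and 1.06 CPM in NOR and at 0.393, 0.210 and 0.0564 CPM in BALB/c LGs. At 16 weeks it was at 6.07, 12.2 and 10.4 against 0.285, 0.152 and 0.480 CPM. The groups did not overlap at either age, and the log2 fold changes were 3.10 ± 0.56 (adjusted p = 0.000331; 3.76 without BALB/c replicate 1) and 4.86 ± 0.44 (adjusted p = 5.96e-08). The BALB/c totals were only 9 and 18 counts, which gave count ratios of 9.01 (95% exact interval 4.54 to 20.3) and 30.8 (19.3 to 52.4), intervals that cover counting error only.

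Stat2, a factor of the type I response, was at 82.4, 67.5 and 65.8 CPM in NOR and at 30.5, 34.1 and 36.2 CPM in BALB/c LGs at 8 weeks. The values were apart, at a log2 fold change of 1.10 ± 0.14 (adjusted p = 9.91e-06), which was 0.96 without NOR replicate 1. At 16 weeks, 62.2, 87.8 and 76.1 CPM stood against 46.0, 35.3 and 48.9 CPM, and the log2 fold change of 0.79 ± 0.14 (adjusted p = 9.5e-05) was under the fold cutoff. Stat3, which serves the interleukin 6 family and had the highest mean level per length of those STATs over all libraries, was at 74.4, 87.8 and 85.4 against 61.4, 66.0 and 69.4 CPM at 16 weeks. It was higher in every NOR library by a small margin, with log2 fold changes of 0.37 ± 0.08 at 8 weeks (adjusted p = 0.00124) and 0.33 ± 0.08 at 16 weeks (adjusted p = 0.00156). Stat5a, one of the STATs of interleukin 2 and prolactin, was at 0.53 ± 0.14 on the log2 scale at 16 weeks (adjusted p = 0.00441). Stat5b and Stat6, the latter the STAT of interleukins 4 and 13, were at 0.19 (95% confidence interval −0.05 to 0.42) and 0.02 (−0.14 to 0.18).

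**Figure D1:**
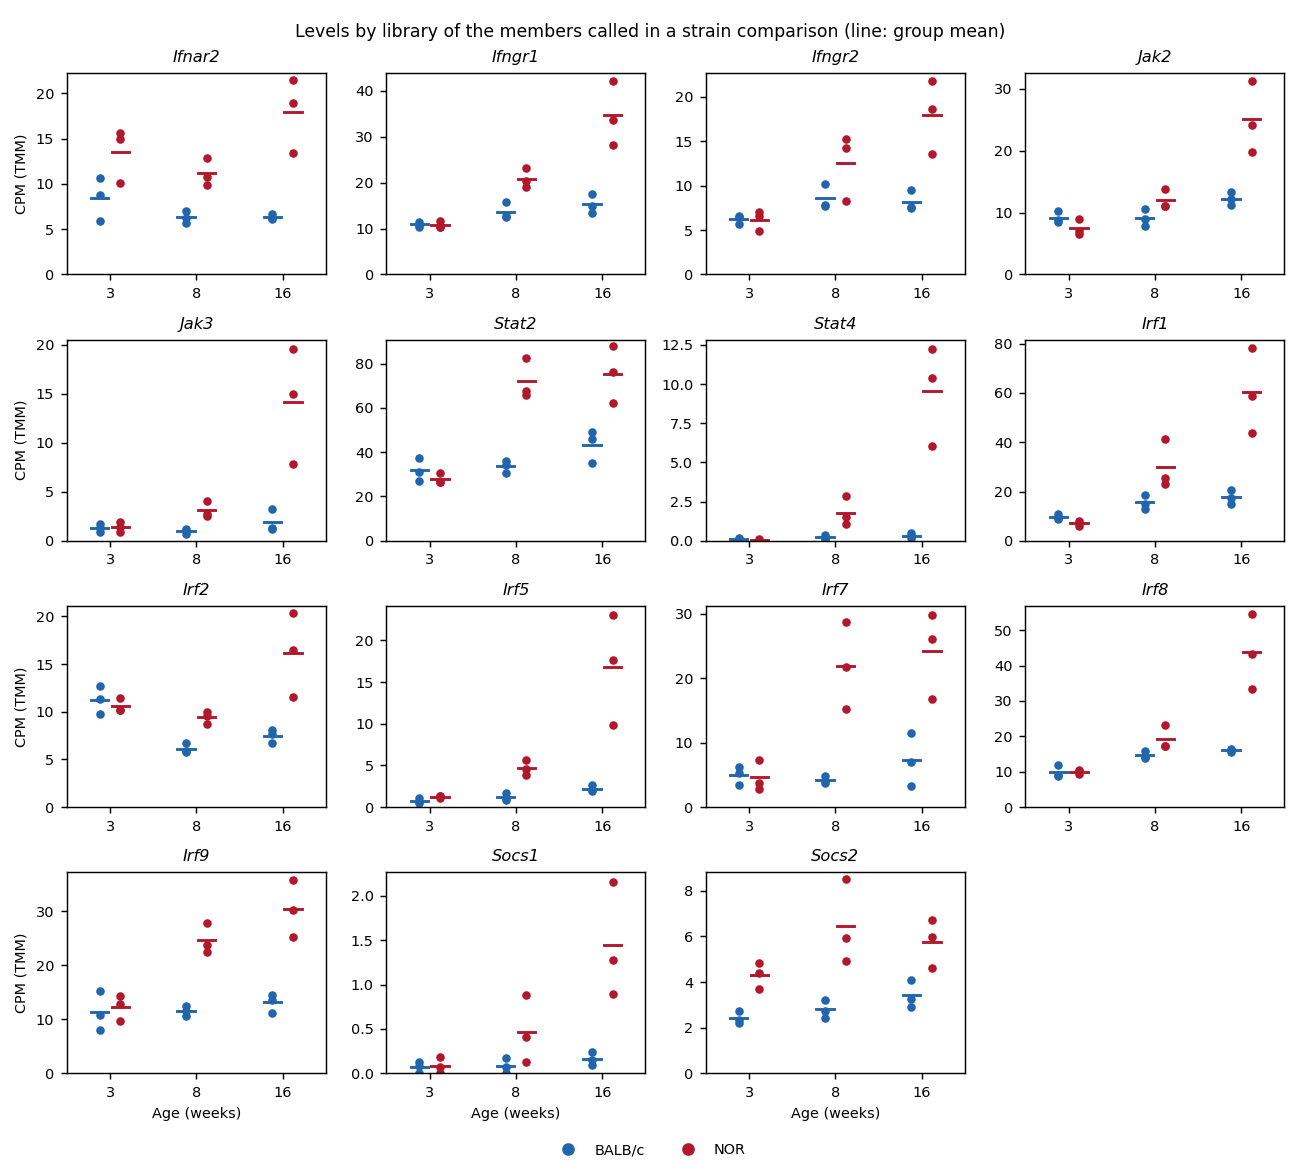
Level of each of the 15 members called in at least 1 strain comparison, in TMM-normalized CPM on a linear axis of its own, in every library by age; points are libraries, lines are group means, BALB/c is blue and NOR is red. Stat4 reached 6.07 to 12.2 CPM in NOR LGs at 16 weeks and at most 0.480 CPM in any BALB/c library, while Irf7 stood at 15.2 to 28.7 CPM in NOR LGs at 8 weeks and at 16.8 to 29.9 CPM at 16 weeks.

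Among the IRFs described, 6 of 7 were upregulated at 16 weeks and 3 of 7 at 8 weeks, and Irf3 was lower throughout. Irf1, a target and effector of interferon gamma, was at 43.8, 78.1 and 58.8 CPM in NOR and at 17.5, 14.8 and 20.8 CPM in BALB/c LGs at 16 weeks. The groups were apart and the log2 fold change was 1.76 ± 0.21 (adjusted p = 1.54e-06). At 8 weeks it was at 41.2, 25.3 and 23 against 18.8, 15.1 and 12.9 CPM, apart as well, and 0.94 ± 0.22 (adjusted p = 0.00275) was under the fold cutoff. Irf2, which binds the same DNA as IRF1 and can oppose it, was at 11.5, 20.4 and 16.5 against 8.12, 6.70 and 7.68 CPM at 16 weeks. All NOR libraries were higher, at a log2 fold change of 1.11 ± 0.16 (adjusted p = 1.23e-05) that was 0.90 without NOR replicate 2.

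Irf5 and Irf8 act in myeloid and B cells, Irf5 downstream of Toll-like receptors and Irf8 in the development of dendritic cells and macrophages. Irf5 was at 9.87, 23 and 17.6 CPM in NOR and at 1.90, 2.05 and 2.69 CPM in BALB/c LGs at 16 weeks. It was also apart at 8 weeks, at 5.69, 4.59 and 3.88 against 1.10, 0.839 and 1.75 CPM. The log2 fold changes were 2.92 ± 0.28 (adjusted p = 1.23e-07) and 1.90 ± 0.33 (adjusted p = 0.000234), the former the largest of these IRFs at 16 weeks. Irf8 was at 33.5, 54.6 and 43.1 against 16.2, 16.4 and 15.6 CPM at 16 weeks, at a log2 fold change of 1.45 ± 0.15 (adjusted p = 2.87e-07). At 8 weeks, its NOR values of 23.3, 17.2 and 17.3 CPM were each above the BALB/c values of 14.1, 13.8 and 15.9 CPM, but the log2 fold change of 0.39 ± 0.16 did not pass the test (adjusted p = 0.0695). Of 5 macrophage markers, 3 were upregulated in NOR LGs at 8 weeks and 4 at 16 weeks (summed level 116 to 164 and 160.2 to 236 CPM, against 52.0 to 72.1 and 67.3 to 84.7 CPM in BALB/c LGs). Of 5 dendritic cell markers the numbers were 3 and 4 (9.63 to 19.2 and 22.4 to 46.6 CPM, against 1.75 to 4.0 and 4.64 to 6.15 CPM). The dendritic cell markers Flt3, Xcr1 and Zbtb46 passed the filter on low counts only through NOR LGs of 8 and 16 weeks. Any call of them there is therefore no separate evidence. The part of the macrophage and dendritic cell markers in the levels of Irf5 and Irf8 was not tested.

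Irf7 and Irf9 belong to the type I arm, Irf7 as the inducible factor that raises interferon alpha genes and Irf9 as the DNA-binding partner of STAT2. At 8 weeks, Irf7 was at 28.7, 21.7 and 15.2 CPM in NOR and at 3.69, 4.05 and 4.85 CPM in BALB/c LGs. The groups were well apart, and its log2 fold change of 2.36 ± 0.36 (adjusted p = 6.08e-05) was the largest of these IRFs at that age. At 16 weeks, 16.8, 29.9 and 26 CPM stood against 6.98, 3.27 and 11.6 CPM, still apart though BALB/c libraries were more spread, at a log2 fold change of 1.70 ± 0.33 (adjusted p = 0.000269). Irf9 was at 27.8, 22.4 and 23.8 against 10.5, 11.6 and 12.5 CPM at 8 weeks and at 25.2, 35.8 and 30.2 against 13.6, 11.2 and 14.6 CPM at 16 weeks. NOR was above BALB/c in every library at both ages, with log2 fold changes of 1.09 ± 0.18 (adjusted p = 0.000179; 0.97 without NOR replicate 1) and 1.21 ± 0.18 (adjusted p = 1.85e-05).

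Irf3, the constitutive factor that is switched on by phosphorylation when cells sense viral nucleic acid, ran the other way. Its mean level per length was the highest of these IRFs in every group but NOR LGs at 16 weeks, where Irf1, Irf8 and Irf3 stood at 17.9, 15.5 and 15.4 CPM per kilobase of exon. It was at 32.6, 32.7 and 32.2 CPM in NOR and at 47.7, 41.7 and 44.1 CPM in BALB/c LGs at 3 weeks. At 8 weeks it was at 37.6, 37.8 and 38 against 54.6, 52.2 and 53.7 CPM, and at 16 weeks at 35.3, 36.3 and 29.5 against 49.8, 52.7 and 48.8 CPM. No NOR library reached the lowest BALB/c library of its age. The log2 fold changes were −0.46 ± 0.08, −0.50 ± 0.07 and −0.57 ± 0.07 (adjusted p = 0.000361, 4.63e-05 and 4.22e-06), under the fold cutoff at each age. Between 3 and 16 weeks this difference moved by −0.12 (95% confidence interval −0.34 to 0.11).

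Of the inhibitors, Socs1 and Socs2 were called in a strain comparison, and the SOCS genes moved in both directions. Socs1, which blocks the JAKs and restrains interferon gamma signalling, had the lowest mean level per length of the SOCS group over all libraries. At 16 weeks it was at 0.897, 2.16 and 1.28 CPM in NOR and at 0.237, 0.152 and 0.0961 CPM in BALB/c LGs. The NOR libraries held 80 counts and the BALB/c libraries 9, without overlap in level, and the log2 fold change was 3.14 ± 0.62 (adjusted p = 0.000352). Socs1 passed the filter on low counts only through these NOR libraries, so it had to differ at 16 weeks once it was tested. At 8 weeks it was at 0.879, 0.124 and 0.411 against 0, 0.0699 and 0.169 CPM, from 24 and 4 counts, and the groups overlapped. The fitted log2 fold change of 2.32 ± 0.84 (adjusted p = 0.0464) rested on few reads, since the count ratio of 5.35 had an exact 95% interval of 1.84 to 21.2. That call was lost with DESeq2 (adjusted p = 0.071), and without NOR replicate 1, the library with the most Socs1 counts, it was 1.5 (adjusted p = 0.291). It was also lost without NOR replicate 3 (2.42, adjusted p = 0.065), BALB/c replicate 1 (1.87, adjusted p = 0.138) or BALB/c replicate 2 (2.20, adjusted p = 0.121), and the value was 3.42 (adjusted p = 0.0442) without BALB/c replicate 3.

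Socs2, a regulator of growth hormone signalling, was higher in NOR LGs at every age. It was at 3.71, 4.85 and 4.39 CPM in NOR and at 2.19, 2.74 and 2.34 CPM in BALB/c LGs at 3 weeks. At 8 weeks it was at 5.92, 8.49 and 4.93 against 2.75, 2.45 and 3.21 CPM, and at 16 weeks at 4.62, 6.70 and 5.95 against 2.90, 3.27 and 4.08 CPM. The strains did not overlap at any age, with log2 fold changes of 0.83 ± 0.24 (adjusted p = 0.0211), 1.19 ± 0.21 (adjusted p = 0.000297) and 0.76 ± 0.21 (adjusted p = 0.00486). Only the value at 8 weeks reached the fold cutoff, and it was 0.92 without NOR replicate 2 and 0.90 without the libraries rich in parotid transcripts.

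The remaining inhibitors differed by less than the fold cutoff. Cish, an inhibitor of STAT5 signalling, was higher in NOR LGs at 3 weeks, at 9.21, 14 and 13.4 against 7.22, 5.40 and 9.18 CPM, and the difference shrank with age (log2 fold changes of 0.71 ± 0.18, 0.54 ± 0.19 and −0.03 ± 0.19, adjusted p = 0.0106, 0.0389 and 0.907). The change of its strain difference from 3 to 16 weeks was −0.75 ± 0.26 (adjusted p = 0.044). Socs7, the SOCS gene with the highest mean level per length, was at 27.9, 19.9 and 25 CPM in NOR and at 37.6, 37.4 and 35.7 CPM in BALB/c LGs at 16 weeks, with NOR lower in every library and a log2 fold change of −0.62 ± 0.10 (adjusted p = 7.48e-05). At 3 weeks its log2 fold change was 0.00 ± 0.10, and the strain difference moved by −0.61 ± 0.15 from 3 to 16 weeks (adjusted p = 0.006). Socs4 was lower in NOR than in BALB/c LGs at 3 weeks (−0.76 ± 0.16, adjusted p = 0.00217), likewise at 16 weeks (−0.68 ± 0.15, adjusted p = 0.000755), but was at −0.10 ± 0.15 at 8 weeks. Socs5 was at 0.63 ± 0.19 at 16 weeks (adjusted p = 0.0103) and Socs6 at −0.03 (95% confidence interval −0.33 to 0.27). Socs3, the inhibitor induced by the interleukin 6 family, did not pass the test between strains, with 4.55, 10.8 and 7.97 against 3.47, 7.53 and 3.84 CPM at 16 weeks and overlapping groups (0.70 ± 0.31, adjusted p = 0.0639).

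The 4 PIAS genes encode SUMO ligases that restrain STATs, and none was called between strains. Pias1, which had the highest mean level per length of them at 8 and 16 weeks and the lowest at 3 weeks in both strains, was at 27.2, 25 and 25.4 CPM in NOR and at 35.2, 32.6 and 31.3 CPM in BALB/c LGs at 16 weeks. It was lower in every NOR library there and at 8 weeks, with log2 fold changes of −0.35 ± 0.08 (adjusted p = 0.00164) and −0.43 ± 0.09 (adjusted p = 0.000771). Pias2 was at −0.20 ± 0.07 at 16 weeks (adjusted p = 0.027), and Pias3 and Pias4 lay between −0.19 and −0.03 at all ages without passing the test.

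Within NOR LGs, 7 members were upregulated from 3 to 8 weeks, where 8.88% of all genes were: Irf1, Irf5, Irf7, Irf9, Jak3, Stat2 and Stat4. From 8 to 16 weeks, 8 members were upregulated, where again 8.88% of all genes were: Irf1, Irf5, Irf8, Jak2, Jak3, Socs1, Socs3 and Stat4. Stat4 passed the filter on low counts only through NOR LGs of 8 and 16 weeks, and Socs1 only through those of 16 weeks. The filter thus fixed the rise of Stat4 in the first step and of Socs1 in the second. Without the libraries rich in parotid transcripts the first count was 5, with Irf5 and Jak3 not called. In the first step, Jak3 was not called without NOR replicate 1 or 3 of 3 weeks or replicate 1 or 3 of 8 weeks, and Irf9 was not without replicate 1 of either age. The second count fell to 4 (Irf5, Irf8, Jak3 and Stat4) without NOR replicate 2 of 16 weeks. It fell to 6 without the libraries rich in parotid transcripts and without NOR replicate 2 or 3 of 8 weeks, where Irf1 and Socs1 were not called. By the adjusted p alone, 22 members changed in the first step (33.8% of all genes) and 19 in the second (36.9%). From 3 to 8 weeks the log2 fold changes were 2.18 ± 0.38 for Irf7 (adjusted p = 0.000191), 2.06 ± 0.25 for Irf1 (adjusted p = 5.57e-06) and 1.35 ± 0.15 for Stat2 (adjusted p = 1.55e-06). Stat4 rose from 2 counts to 91, a count ratio of 27.4 (95% exact interval 7.36 to 229.5).

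Irf7, Stat2 and Irf9 did not pass the test over the later step, whereas Irf1, Irf5, Irf8, Jak2, Jak3 and Stat4 rose. From 8 to 16 weeks, Irf7 changed by 0.16 (95% confidence interval −0.48 to 0.79), Stat2 by 0.07 (−0.21 to 0.35) and Irf9 by 0.31 (−0.06 to 0.67) on the log2 scale, none past the test. Over the same step Irf1 rose by 1.02 ± 0.20 (adjusted p = 0.000988), Jak2 by 1.08 ± 0.15 (adjusted p = 4.99e-05) and Irf8 by 1.19 ± 0.15 (adjusted p = 1.75e-05). Irf5 rose by 1.84 ± 0.26 (adjusted p = 4.94e-05), Jak3 by 2.19 ± 0.34 (adjusted p = 0.000119) and Stat4 by 2.40 ± 0.35 (adjusted p = 6.91e-05). The 4 receptor subunits each rose by less than the fold cutoff, between 0.40 and 0.75. Of the T cell markers, all 7 were upregulated over the same step with a median log2 fold change of 2.46, as were all 5 B cell markers (4.33), all 4 pan-leukocyte markers (2.06), 3 of 5 dendritic cell markers (1.20) and 2 of 3 NK cell markers (1.09), while 0 of 5 macrophage markers were (0.56). Their part in the rise of these members was not tested.

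The known target genes of the 2 arms were read from lists. Of 26 type I interferon response genes, which include the antiviral genes Isg15, Mx1 and Ifit1, 23 were higher in NOR LGs at 8 weeks (median log2 fold change 2.02, against 0.02 for all genes) and 21 at 16 weeks (1.63, against −0.01). From 8 to 16 weeks in NOR LGs, 1 of the 26 was upregulated (Trim30a, 1.18), with a median of 0.06 against −0.01 for all genes. Of 21 interferon gamma response genes tested, which include Cxcl9, Ciita and the guanylate-binding proteins, 21 were higher in NOR LGs at both ages (median 2.78 and 3.59). In NOR LGs, 16 of them were upregulated from 8 to 16 weeks (median 1.51). Ido1, also listed, did not pass the filter on low counts. Cxcl9, Cxcl10, Tgtp1, Tgtp2 and Ubd had means of at most 0.352 CPM in every BALB/c group and in NOR LGs of 3 weeks. These genes passed the filter only through NOR LGs of 8 and 16 weeks, so they had to differ between the strains at those ages once they were tested. The same holds for Oas3 of the type I list. Cxcl9, the chemokine that draws in T cells, changed by 1.61 from 8 to 16 weeks, Ciita, the switch for class II antigen presentation genes, by 2.40, Isg15 by −0.19 and Ifit1 by −0.23. In BALB/c LGs, the step from 8 to 16 weeks had medians of 0.62 for the gamma list and 0.61 for the type I list, with 0 genes called. For the change of the strain difference over that step, 1 of 21 gamma genes was called (median 0.57). Of the 26 type I genes, 0 were (median −0.44). Many genes of either list are known to respond to both kinds of interferon. At 3 weeks, 2 type I response genes were higher and 2 lower in NOR LGs, and 1 gamma response gene was higher.

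**Figure D2:**
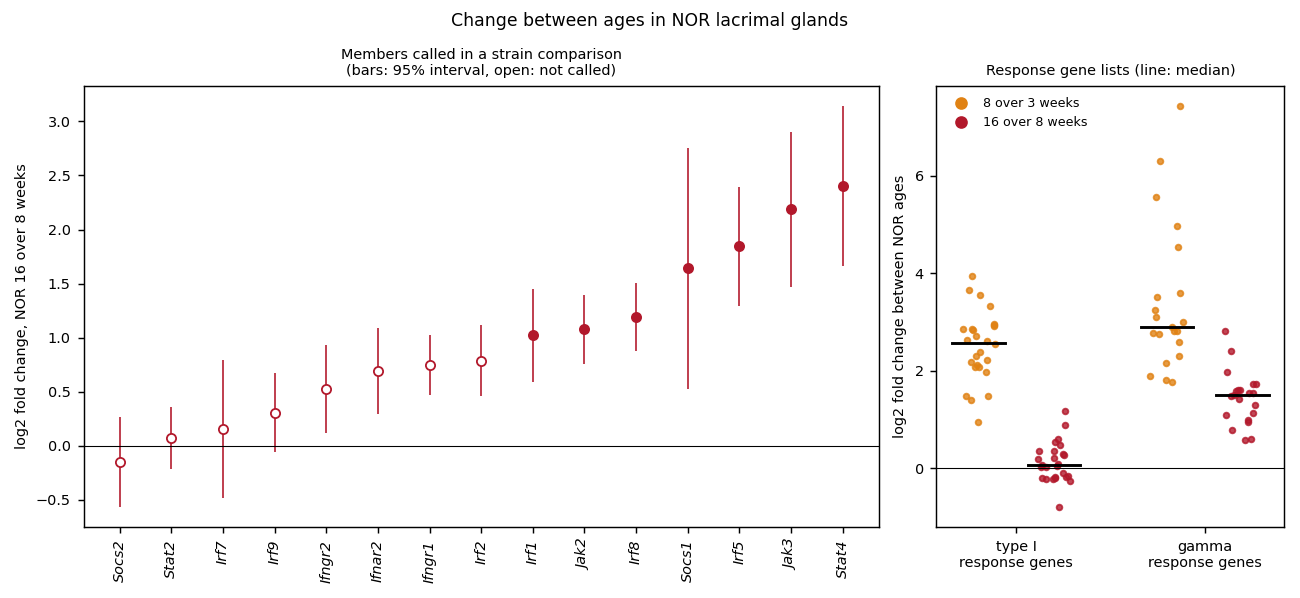
Change between ages in NOR LGs on the log2 scale. Left, the step from 8 to 16 weeks for the 15 members called in a strain comparison, with 95% confidence intervals and filled points for those called; right, each gene of the type I and gamma response lists for the steps from 3 to 8 weeks (orange) and 8 to 16 weeks (red), with the list median as a line. Stat2 and Irf7 lie at 0.07 and 0.16, and the type I list has its later median at 0.06 while that of the gamma list is at 1.51.

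Within BALB/c LGs, 1 member was called from 3 to 8 weeks, where 6.95% of all genes were, and 0 from 8 to 16 weeks, where 0.441% were. In the later step 8 members had an unadjusted p under 0.05, 0 had an adjusted p of at most 0.05 (1.76% of all genes did), and DESeq2 called 0. The called member was Pias1, which rose from 11.9, 12.7 and 11.8 CPM to 27.1, 28.7 and 26.5 CPM, with no overlap and a log2 fold change of 1.18 ± 0.09 (adjusted p = 1.4e-08). Pias1 also rose in NOR LGs over that step, by 0.95 ± 0.10 (adjusted p = 7.22e-07). Jak1 rose in both strains as well, from 73.3 to 75.4 CPM up to 122 to 132 CPM in BALB/c LGs (0.76 ± 0.08) and from 60.4 to 71.8 CPM up to 99.6 to 115 CPM in NOR LGs (0.72 ± 0.08). Irf2 fell in BALB/c LGs, from 9.79, 11.3 and 12.7 CPM to 6.76, 5.80 and 5.87 CPM (−0.88 ± 0.17, adjusted p = 0.000643), and was at −0.18 ± 0.17 in NOR LGs. Stat5b fell in both, by 0.70 on the log2 scale in BALB/c and by 0.43 in NOR LGs. By the adjusted p alone, 13 members changed over that step in BALB/c LGs (27.9% of all genes), 6 of them upwards.

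Whether the gap between the strains widened with age was asked in the same model. From 3 to 16 weeks it grew for 11 members, where 7.51% of all genes were called in that direction: Jak3 (2.83 ± 0.62), Irf1 (2.21 ± 0.34), Irf5 (2.18 ± 0.55), Irf7 (1.75 ± 0.53), Irf8 (1.44 ± 0.23), Jak2 (1.32 ± 0.24), Ifngr1 (1.19 ± 0.20), Irf2 (1.18 ± 0.23), Ifngr2 (1.11 ± 0.31), Irf9 (1.10 ± 0.27) and Stat4. The fitted value of Stat4 depended on the few counts at 3 weeks and is no bound, and Stat4 was tested at all only because of the NOR libraries in which it was high. By the adjusted p alone it moved for 21 members (24.9% of all genes). Single libraries of 3 weeks and NOR replicate 2 of 16 weeks decided some of these calls: Irf7 was not called without NOR replicate 1 or BALB/c replicate 1 or 2 of 3 weeks, Irf9 without NOR replicate 1 or BALB/c replicate 2 of 3 weeks, Irf5 without BALB/c replicate 1 of 3 weeks, and Ifngr2, Irf2 and Irf7 without NOR replicate 2 of 16 weeks. Without the 5 libraries rich in parotid transcripts, which left a single NOR library of 3 weeks that was assumed to vary like the others, the count was 6 (Ifngr1, Irf1, Irf8, Irf9, Jak2 and Jak3). From 8 to 16 weeks it grew for 1 member, Irf8 (1.06 ± 0.22, adjusted p = 0.00903), where 2.03% of all genes were called in that direction (7.97% in either direction by the adjusted p alone, with the same 1 member). Irf8 was not called there without the libraries rich in parotid transcripts, nor without NOR replicate 2 of 16 weeks, NOR replicate 3 of 8 weeks or BALB/c replicate 3 of 8 weeks, and 3 members were called (Irf1, Irf5 and Irf8) without NOR replicate 1 of 16 weeks. Without NOR replicate 1 of 8 weeks, 2 were (Irf1 and Irf8). The strain difference of Irf7 moved by −0.67 (95% confidence interval −1.69 to 0.35) and that of Stat2 by −0.30 (−0.71 to 0.11) between 8 and 16 weeks.

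Levels of different genes were compared per kilobase (kb) of exon. The exons of Jak1, Jak3, Pias3 and Stat6 share 397, 406, 179 and 70 bases with another gene. Reads there were not counted, so the levels of these 4 members per kb may be too low. In BALB/c LGs at 16 weeks, the members with the highest levels were Jak1 at 23.2 ± 0.845 CPM per kb (SD, n = 3) and Irf3 at 23 ± 0.913, whose ranges overlap within their spread, followed by Stat3 at 14.6 ± 0.894 and Stat6 at 14.3 ± 1.05, which do not differ beyond theirs. In NOR LGs at 16 weeks, Jak1 had the highest mean of the members described at 25.3 ± 1.77 CPM per kb, and Stat3 at 18.4 ± 1.6, Irf1 at 17.9 ± 5.11 and Stat2 at 17.2 ± 2.91 were within each other's spread. The receptor subunits stood in the order Ifngr1, Ifngr2, Ifnar2, Ifnar1 in NOR LGs at 16 weeks, at 16.6 ± 3.36, 8.69 ± 2.00, 5.65 ± 1.29 and 4.2 ± 0.762 CPM per kb, the last 3 within reach of a neighbour's spread. In BALB/c LGs of that age the order was Ifngr1, Ifngr2, Ifnar1, Ifnar2, with the last pair at 2.34 ± 0.121 and 2.00 ± 0.0992 CPM per kb. Socs1 stayed at the bottom of the SOCS group in both strains, at 1.18 ± 0.530 and 0.133 ± 0.0584 CPM per kb.

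**Figure D3:**
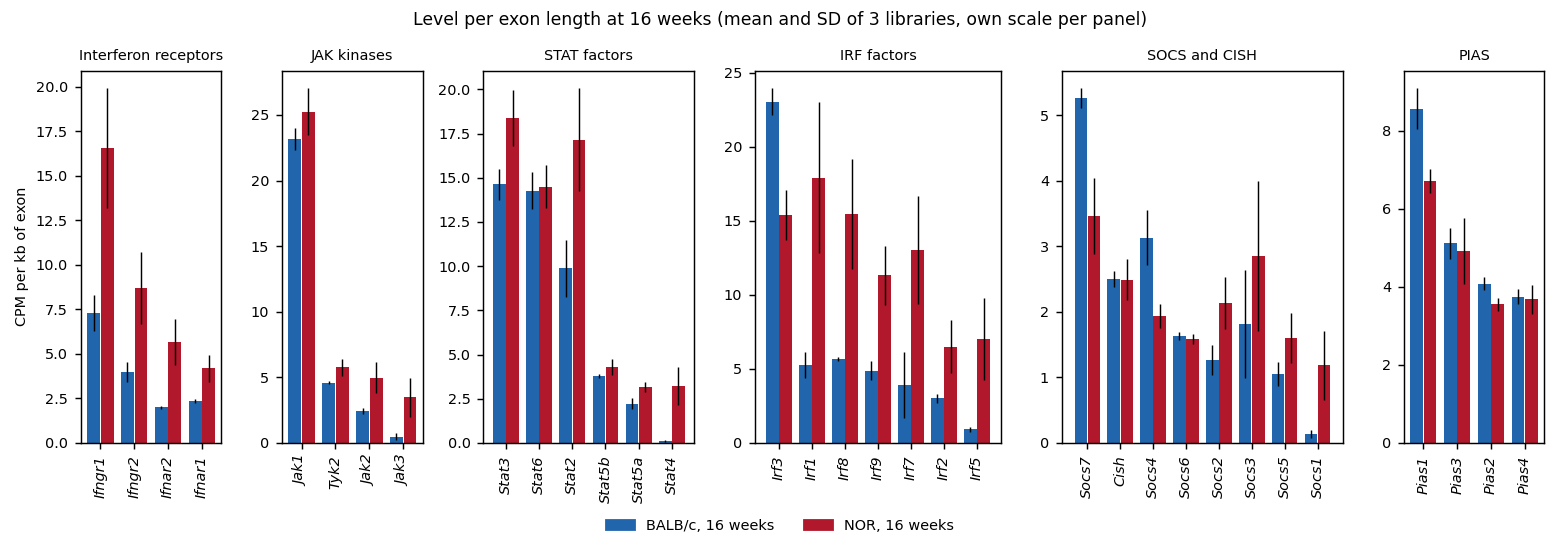
Mean level of the 33 members at 16 weeks in CPM per kilobase of exon, with the SD of 3 libraries, in BALB/c (blue) and NOR (red) LGs; each family has a linear axis of its own that starts at 0. Jak1 stands at 25.3 in NOR and 23.2 in BALB/c LGs, Irf3 at 15.4 and 23, and Ifngr1 at 16.6 and 7.29.

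The ligands of these receptors were scarce. None of 9 interferon genes listed passed the filter on low counts. Ifng, the gene of interferon gamma, had 0 counts in all BALB/c libraries and in the NOR libraries of 3 weeks, 1, 4 and 2 counts in those of 8 weeks and 3, 20 and 11 counts in those of 16 weeks. Ifnb1, the gene of interferon beta, had 1 count in each of 2 NOR libraries and 0 elsewhere, and the interferon alpha genes Ifna1, Ifna2 and Ifna4 had 0 counts throughout. At this depth an absence cannot be told from a level under the floor. Of 21 cytokine genes that signal through JAKs, 6 were tested, and 3 were higher in NOR LGs at 8 weeks and 3 at 16 weeks, with Ebi3, a subunit shared by interleukins 27 and 35, at 2.5 and 2.47. Ebi3, Il12b, Lif and Tslp passed the filter on low counts only through NOR LGs of 8 and 16 weeks. Any call of these genes between the strains at those ages is therefore no separate evidence. Il15, which sustains NK and memory T cells, was higher at 16 weeks, by 1.28 on the log2 scale.

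Of 28 other receptor genes of the JAK pathway that were tested, 12 were higher and 1 lower in NOR LGs at 8 weeks (median 0.88, against 0.02 for all genes), and 16 were higher and 2 lower at 16 weeks (1.34, against −0.01). Il2rg, the common gamma chain to which JAK3 binds, had log2 fold changes of 2.80 and 4.23, Il21r of 4.02 and 5.97, Il4ra of 1.79 and 3.33, and Il7r of 2.32 and 3.43. The lower genes were Lepr, the leptin receptor, at −1.26 and −1.64, and Prlr, the prolactin receptor, at −1.13 at 16 weeks. Il12rb1, a chain of the interleukin 12 receptor that acts through STAT4, was at 2.15 at 16 weeks and at 0.96 at 8 weeks, where it was not called. Il21r, Il12rb1, Il2rb and Il9r were among the receptor genes that passed the filter on low counts only through NOR LGs in which they were high. Calls of such genes between the strains are no separate evidence. Il6st, the signal chain of the interleukin 6 family, was at 0.20 and 0.33 and was not called. Of 7 other negative regulators, 1 was higher at 8 weeks (Usp18, 1.69) and 3 at 16 weeks (Ptpn6, 1.99, Sh2b3, 1.04, and Usp18, 1.04), where Ptpn6 encodes a phosphatase of leukocytes. Of 14 immediate-early genes tested, 3 were upregulated in NOR LGs from 8 to 16 weeks beside Socs3 and 7 in BALB/c LGs, where Socs3 went from 2.67, 2.73 and 1.97 to 3.47, 7.53 and 3.84 CPM (0.98 ± 0.34, adjusted p = 0.149). The part of these genes in the values of Socs3 was not tested. Of 12 clock genes, 7 were called lower and 0 higher in NOR than in BALB/c LGs at 16 weeks, where 19.4% of all genes were called in either direction. From 8 to 16 weeks in NOR LGs, 6 of the 12 were called lower and 2 higher. Of the 13376 genes tested, 1292 were called in either direction over that step. The part of the clock genes in the values of the members was not tested.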

How the data were processed

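RNA-seq was analysed from the gene counts of 18 LG libraries. By the labels and methods, the authors sequenced single reads of strand-marking mRNA libraries, aligned them to mm10 with HISAT2 (version not given in the sources used here) and counted reads on exons. The deposited table holds these raw counts, not normalized, from featureCounts 1.6.2, run without a strand option and without multi-mapping or overlapping reads. Reads of genes that overlap on opposite strands can therefore not be told apart.

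Counts were scaled with TMM factors (0.815 to 1.44) in edgeR 4.0.16 (R 4.3.3). Genes past filterByExpr (minimum count 10, minimum total 15) were fitted with 1 mean per group over all libraries, with no covariates, and tested by the quasi-likelihood F-test with Benjamini-Hochberg adjustment. The common dispersion gave a biological coefficient of variation of 13.8%. SEs came from the estimate and its F statistic. With 3 libraries against 3, an exact permutation test of a single gene cannot give a two-sided p under 0.1, so the p-values draw on a spread estimated over many genes. The libraries are labelled biological replicates. Count ratios have exact conditional intervals of 95% (scipy 1.17.1) that cover counting error only.

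Every member described is accounted for, per-library values are given for members called in a strain comparison or an interaction and for the most abundant of each family, and other genes come from marker and pathway lists. Members and lists were chosen with earlier results of these data known. The authors tested with DESeq2, which is an alternative here (DESeq2 1.42.0). Other alternatives were its size factors, TMM without the 20 most abundant genes, no filter or a mean CPM of at least 1, fits of only the groups compared, fits with the replicate number as a block, no fold cutoff, glmTreat and each library left out. On simulated data, 190 of 200 changed genes (95%) were called at 16 weeks among 13003 genes, with 3 unchanged ones, and 172 (86%) for the interaction from 3 to 16 weeks. All planted changes were larger than the fold cutoff, lay in genes without very low counts, and varied as the fit estimated. These shares therefore do not apply to members close to the cutoff or to genes with few counts. Promoters are RefSeq windows. 3 genes of these families are not reported here.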

Additional observations from a re-analysis of the deposited data

Results flagged for a closer look

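The strain difference moved between ages by a tested interaction (the quasi-likelihood F-test of edgeR, Benjamini-Hochberg adjusted) for 11 members from 3 to 16 weeks and for 1 from 8 to 16 weeks, and these are the results that stood out. From 3 to 16 weeks, the log2 difference grew by 2.83 for Jak3 (adjusted p = 0.00319), 2.21 for Irf1, 2.18 for Irf5, 1.75 for Irf7, 1.44 for Irf8, 1.32 for Jak2, 1.19 for Ifngr1, 1.18 for Irf2, 1.11 for Ifngr2 and 1.10 for Irf9, with adjusted p-values of at most 0.0233. For Stat4 the fitted growth was 5.75, a value set by the 2 NOR and 6 BALB/c counts at 3 weeks. Stat4 passed the filter on low counts only through the NOR libraries of 8 and 16 weeks, in which it was high, so it had to differ once it was tested. From 8 to 16 weeks, it grew by 1.06 for Irf8 (adjusted p = 0.00903), from all NOR libraries just above the BALB/c range at 8 weeks to at least 33.5 against at most 16.4 CPM at 16 weeks.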

How the results depend on the processing

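Of 21 log2 fold changes called in a strain comparison, 17 belonged to members other than Socs1 and Stat4. Refitting each of these under the alternatives gave 238 values in total. Every value kept its direction, and 230 stayed past the thresholds. The 8 losses came with a single library left out or without the libraries rich in parotid transcripts. Socs1 at 8 weeks was lost in 6 of 12. Without a fold cutoff, the members called were 6 at 3 weeks, 19 at 8 weeks and 25 at 16 weeks between strains, 22 and 19 for the steps to 8 and to 16 weeks in NOR LGs, 13 for the step to 8 weeks in BALB/c LGs, and 21 for the interaction from 3 to 16 weeks. With glmTreat, which tests the same fit against a log2 fold change of 1, 11 of the 21 were lost and the members called were 3 at 8 weeks and 7 at 16 weeks between strains, 3 and 3 for the steps in NOR LGs, 0 for the step to 8 weeks in BALB/c LGs, and 3 and 0 for the interactions to 16 from 3 and from 8 weeks. Without the libraries over 5000 CPM of parotid transcripts, an alternative chosen after seeing the data, the interactions gave 6 and 0. With each library left out in turn, the counts were 0 to 0 at 3 weeks, 5 (without NOR replicate 1) to 8 at 8 weeks, 10 (without NOR replicate 2) to 15 (without NOR replicate 1) at 16 weeks, 5 to 9 and 4 to 9 for the steps in NOR LGs, 1 to 1 and 0 to 0 for those in BALB/c LGs, and 8 to 14 and 0 to 3 for the interactions. Replicate numbers did not pair the samples: the correlations of same-numbered libraries' deviations ran from −0.362 to 0.395 and were not all above 0.1 in any comparison. With the number as a block, 7 members were called at 8 weeks between strains (Socs1 was lost) and 6 for the step to 8 weeks in NOR LGs, and the other counts were as reported. No scaling moved the median of all genes by over 0.1. Depth limits Socs1 and Stat4 most, which had at most 18 counts over the 3 libraries of any BALB/c group. Identity between members' proteins was not computed.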
